A study of Homo sapiens with 60 samples.

Results

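The messenger RNA of 38 heat shock protein and chaperone genes was followed in A549 cells, an established human lung adenocarcinoma line, after 24 h with a herbal water extract or with vehicle. The genes were taken as a given list of names, without a threshold on any measured value. All 38 were found among the 60675 gene identifiers of the deposited count table, and all 38 passed the low-count filter that kept 17269 genes for testing. By role they comprised 6 genes of the HSP70 and HSP110 families, 2 of HSP90, 5 J-domain proteins with BAG3, 7 co-chaperones, 8 subunits of the TRiC chaperonin, 2 small heat shock proteins, 4 mitochondrial chaperones, 2 heat shock factors and the collagen chaperone SERPINH1 of the endoplasmic reticulum. Thus the list also held proteins that act outside the cytosol.

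There were 3 doses per extract. Citri, Cimicifugae and Bupleuri (Citri Unshius Pericarpium, Cimicifugae Rhizoma and Bupleuri Radix, dried plant parts) and the multi-herb formulas Yijung-tang and Banhasasim-tang were given at 20, 100 and 500 µg/mL with 3 libraries per dose. Aconiti (Aconiti Lateralis Radix Preparata, a processed aconite root) was given at 14.4, 72 and 360 µg/mL with 3 libraries per dose. Bojungikgi-tang had 1 library at each of 20, 100 and 500 µg/mL, and the vehicle group had 3 libraries. Per the series' design text, an extract whose IC20 lay under 500 µg/mL received its IC20 as the high dose, so the high doses of different extracts were set by different rules. The vehicle is 0.1% DMSO by the sample labels but 2% DMSO by the design text. All groups used the same cell line, medium and time. Nothing in the labels says that replicates came from separate cultures, and the p-values therefore reflect only how these libraries spread, which may be technical. No extract shared the set label of the vehicle libraries, so in comparisons with vehicle the set and the extract cannot be told apart. Aconiti and Bupleuri shared a set label, as did Yijung and Banhasasim, and Citri and Cimicifugae.

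Chaperones bind unfolded or partly folded proteins, and many of them, though not all, use cycles of ATP binding to release them for folding. HSP70 takes its substrates from J-domain proteins and is reset by nucleotide exchange factors such as HSP110 and BAG proteins, while HSP90 acts later on a narrower set of clients with the help of co-chaperones. Many of these genes are driven by the transcription factor HSF1, which is held inactive in unstressed cells and binds repeated short units called heat shock elements. Tumour lines commonly express several of these chaperones at high levels without added stress.

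Total counts ranged from 17793655 to 30188211 per library, with a median of 25758911. Markers of the line were present in all 60 libraries: KRT8 between 2659 and 4715 CPM (counts relative to the TMM-scaled library size), ALDH1A1 between 5474 and 7101 CPM and AKR1B10 between 2366 and 3875 CPM, although the epithelial marker EPCAM reached only 3.14 to 7.85 CPM. The leukocyte marker PTPRC was at 0 in 55 libraries and the lung lineage factor NKX2-1 at 0 in 47. Markers of immune, endothelial and stromal cells summed to 26.3 to 31.3 CPM at the high dose of Aconiti and 36.2 to 40.0 CPM in vehicle, nearly all of it COL1A1 and CD68, and their part in the results was not tested. Mitochondrially encoded genes took 16.48% to 18.95% of counts at the high and 13.47% to 15.19% at the medium dose of Aconiti, against 7.906% to 8.541% in vehicle. The library Citri medium 1 stood apart in its balance of long against short transcripts (mean log2 CPM of transcripts over 6000 bases minus that of transcripts under 1500 bases), at -0.11 against 0.97 to 1.19 in vehicle. The same balance was 1.06, 0.45 and 0.51 in Aconiti high 1, 2 and 3.

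Promoter stretches are shown for 4 genes that were lower at the high dose of Aconiti, because the spacing of heat shock element units in them can be read directly. They come from RefSeq promoter windows of the build GRCh38.p14, which run from 250 bases before to 50 bases after each listed start, and each stretch is cut so that it ends before the exons of the principal transcripts in GENCODE 29. Capitals mark GAANNTTC or its other-strand form TTCNNGAA, which are 2 adjoining units, in HSPA1A and HSPA1B. In HSP90AB1 and DNAJB6 the capitals mark GAANNTTCNNGAA or TTCNNGAANNTTC, which are 3 adjoining units. The stretches, all on the plus strand, are chr6:31815293-31815463 and chr6:31827488-31827734, both just upstream of the annotated genes, and chr6:44247733-44247865 and chr7:157336828-157336930, both inside the annotated span of their gene but outside the exons of its principal transcripts.
HSPA1A: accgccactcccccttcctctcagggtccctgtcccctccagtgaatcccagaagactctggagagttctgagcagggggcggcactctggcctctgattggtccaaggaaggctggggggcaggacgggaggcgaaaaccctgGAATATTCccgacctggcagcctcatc
HSPA1B: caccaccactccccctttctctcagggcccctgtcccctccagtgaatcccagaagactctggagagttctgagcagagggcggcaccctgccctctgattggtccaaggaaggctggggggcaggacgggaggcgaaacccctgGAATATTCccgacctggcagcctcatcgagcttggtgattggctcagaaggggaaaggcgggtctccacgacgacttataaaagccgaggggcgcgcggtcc
HSP90AB1: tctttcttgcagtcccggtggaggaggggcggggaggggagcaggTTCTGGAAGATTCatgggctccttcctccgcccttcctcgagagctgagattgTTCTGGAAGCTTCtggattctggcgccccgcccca
DNAJB6: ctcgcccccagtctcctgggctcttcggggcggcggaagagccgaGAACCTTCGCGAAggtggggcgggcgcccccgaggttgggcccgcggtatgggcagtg
HSPA1A and HSPA1B, neighbours on chromosome 6, had 277 of 301 aligned bases in common over their full windows (92.0%). Their coding sequences were identical at 1919 of 1923 bases (99.8%), so the counting may have moved reads between the pair, and their sum is also given.

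The 3-unit motif, searched on both strands, was found in 172 of 35116 promoter windows of all genes (0.49%). Of the 38 genes, 34 had a window in the table, and together they had 52 windows. The 3-unit motif was in 8 of the 52 windows, which belonged to 8 of the 34 genes: CHORDC1, DNAJA1, DNAJB6, HSP90AA1, HSP90AB1, HSPA8, HSPD1 and SERPINH1. The shorter 2-unit motif, which every 3-unit match also contains, was found in 4737 windows of all genes (13.5%). It was in 22 of the 52 windows, which belonged to 21 of the 34 genes. A gene can have several windows, so a share per gene is not comparable with a share per window. A match describes letters in these windows only.

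At vehicle level the genes spanned a wide range per length of transcript. HSP90AA1 had 888 CPM per kb, HSPA8 838, HSP90AB1 831 and HSPD1 601, the highest of the list on that scale. HSPA1A, usually counted as stress-inducible, had 145 CPM per kb and HSPA1B 88.4 in cells without extract. HSPB8 had 3.83 and DNAJA4 0.205 CPM per kb, the lowest 2, and DNAJA4 stayed between 0.197 and 0.849 CPM in all 60 libraries.

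Most of the list was lower at the high dose of Aconiti. Of 38 genes, 25 were lower and 4 higher than in vehicle at an adjusted p under 0.05 (quasi-likelihood test of edgeR, adjusted by Benjamini-Hochberg over all 17269 genes), where 15.7% of all genes were lower and 17.0% were higher. The median log2 fold of the 38 was -0.40, beside -0.00459 over all genes tested. Every one of the 25 was below all 3 vehicle libraries in each of the 3 libraries at the high dose. The 25 were picked by their call in these same libraries, which favours such separation, so it adds no support. With the length balance as a covariate 34 genes passed, where 6609 of all genes did, against 5652 without the covariate. With mitochondrially encoded genes removed 29 of the 38 passed. At the medium dose 5 were lower and 2 higher, where 0.666% of all genes were lower and 1.64% higher, and at the low dose 0 passed, where 0.0695% of all genes did. Of the 7 genes called at the medium dose, HSPA1A and HSPA1B kept their call whichever of the 6 libraries compared was left out, while DNAJB4, HSF1, HSP90AB1, HSPA9 and HSPH1 lost it without at least 1 of them. Putting that balance into the model gave 20 calls at the medium dose, where 1105 of all genes passed, against 399 without it. Fitting the 6 libraries of the medium dose and vehicle alone gave 15, and the share of all genes in that fit is not given here. These counts over doses share the vehicle libraries. In bulk RNA, fewer cells of a kind and less RNA per cell cannot be told apart.

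**Figure D1:**
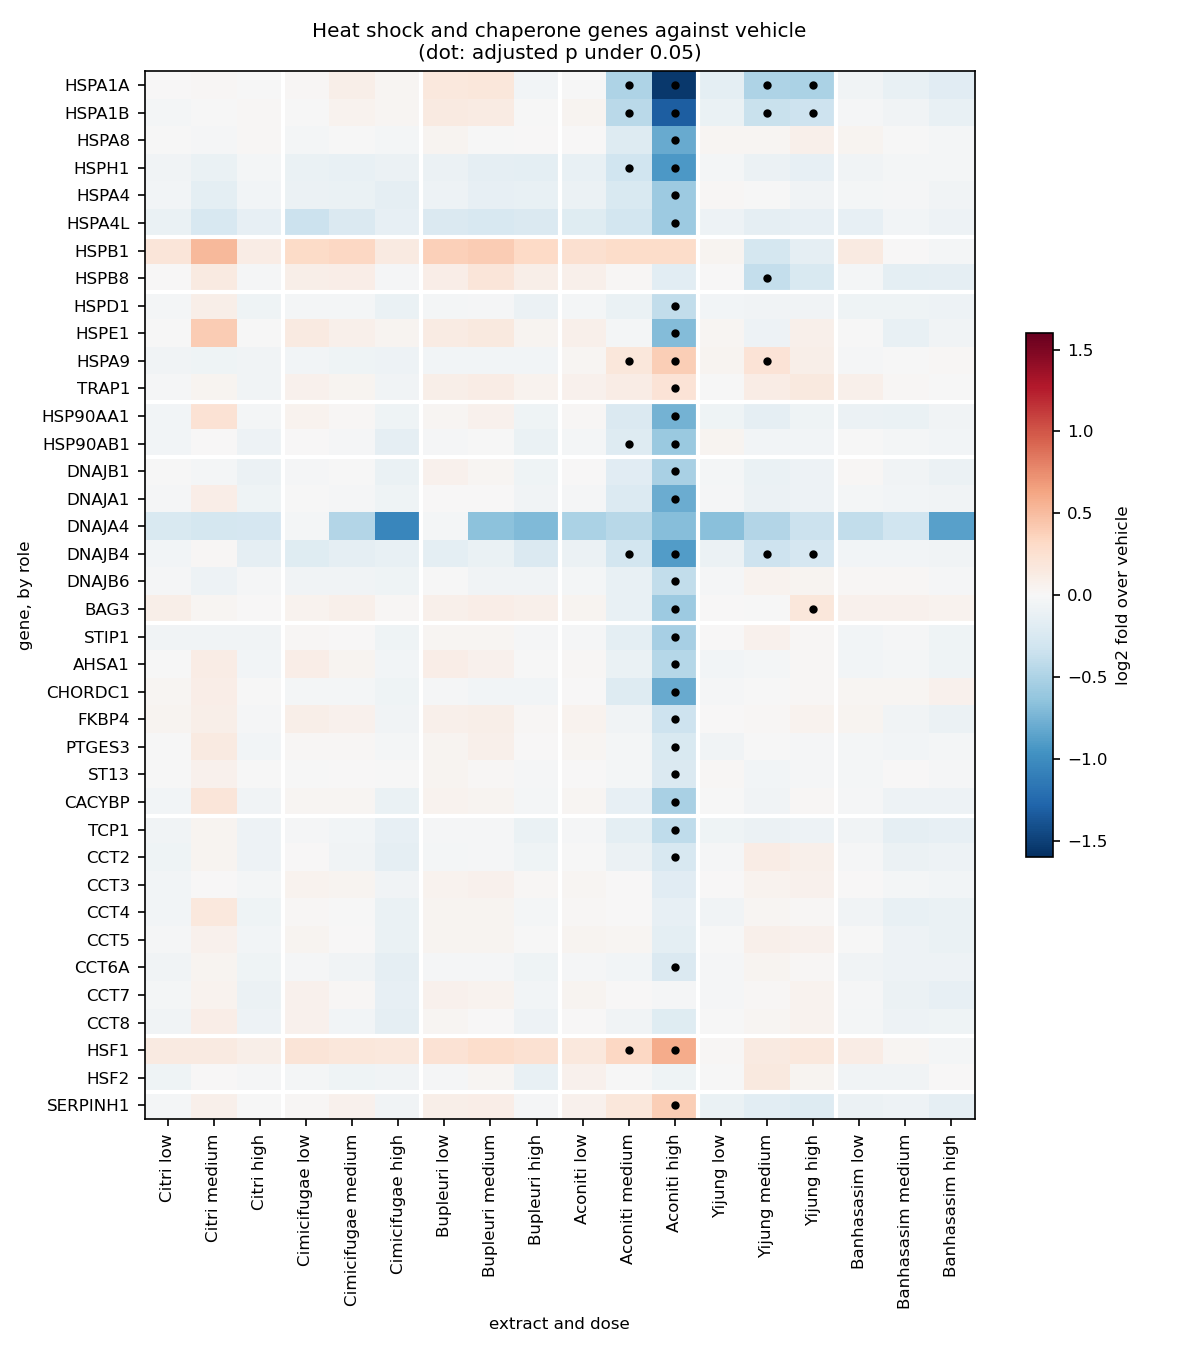
Colour shows the log2 fold over vehicle of each of the 38 genes (rows, grouped by role) at each dose of the 6 replicated extracts (columns, low to high dose), and a black dot marks an adjusted p under 0.05. Dots fill most of the column for the high dose of Aconiti, with 29 genes called, while Yijung has 5 at the medium and 4 at the high dose and Citri, Cimicifugae, Bupleuri and Banhasasim have 0.

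All 6 genes of the HSP70 and HSP110 families fell at the high dose of Aconiti, with a median log2 fold of -0.87. HSPA1A, the inducible HSP70, had 338, 360.0 and 382 CPM in vehicle, 347, 348 and 377 CPM at the low, 251, 250.0 and 267 CPM at the medium and 110.0, 136 and 123 CPM at the high dose. The low dose overlapped with vehicle, while the medium and the high dose each lay below every vehicle library and apart from each other. Its log2 fold over vehicle was -1.55 ± 0.10 at the high dose (SE, adjusted p = 1.57e-16) and -0.49 ± 0.098 at the medium dose (adjusted p = 0.00146). The near-identical HSPA1B had 77.5, 103 and 86.6 CPM at the high dose, against 210.4, 223 and 236 CPM in vehicle, and also fell at both doses (-1.32 and -0.43 on the log2 scale). Summed, the pair had 187, 239 and 209 CPM at the high dose of Aconiti, against 548.7, 583 and 617 CPM in vehicle, a log2 fold of -1.46 ± 0.093 (SE, adjusted p = 1.1e-16). HSPA1A and HSPA1B had the 2 largest falls on the list.

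HSPA8, the constitutive HSP70 of the cytosol, had 1178, 1139 and 1218 CPM at the high dose of Aconiti, against 2034, 2086 and 2070.4 CPM in vehicle. The groups did not overlap, and the log2 fold was -0.81 ± 0.079 (SE, adjusted p = 4.09e-11). HSPH1, an HSP110 that resets HSP70, had 241, 253 and 245 CPM in vehicle, 225, 234 and 225 CPM at the low, 203, 199.9 and 191 CPM at the medium and 141, 113 and 137 CPM at the high dose. Its log2 folds over vehicle were -0.92 ± 0.073 at the high dose and -0.31 ± 0.072 at the medium dose (SE, adjusted p = 9.01e-14 and 0.00775), and the medium call was lost without Vehicle 2 (adjusted p = 0.0575) or without Aconiti medium 3 (adjusted p = 0.0583). The other 2 HSP110 relatives, HSPA4 and HSPA4L, had log2 folds of -0.59 and -0.58 at the high dose. Once the length balance was in the model, the fold of HSPA4L was -0.35 (adjusted p = 1.49e-05).

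**Figure D2:**
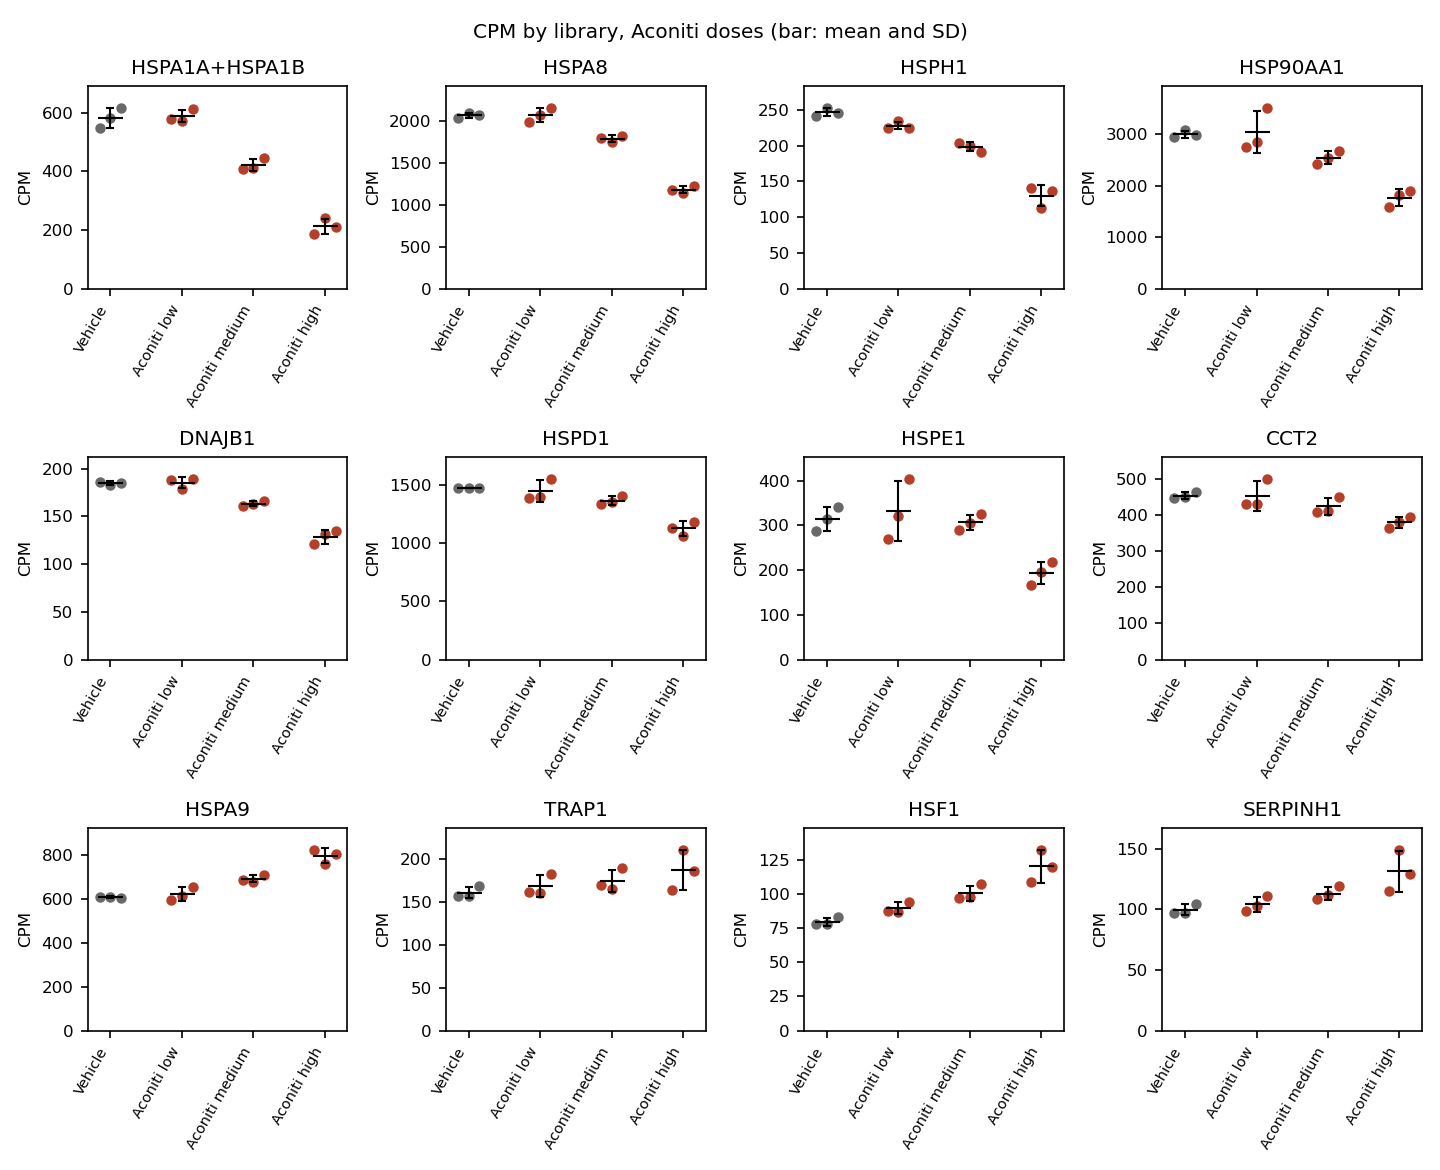
CPM of 12 genes (panels) in each library of vehicle and of Aconiti at low, medium and high dose; points are libraries, and bars give the mean and SD of 3 libraries, on axes that start at 0. The summed HSPA1A and HSPA1B reach 187 to 239 CPM at the high dose, against 548.7 to 617 CPM in vehicle, and HSPA9 and HSF1 move the other way.

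J-domain proteins, which deliver substrates to HSP70, were lower for 4 of 5 at the high dose of Aconiti. DNAJB1, the main partner of inducible HSP70 in the cytosol, had 121, 131 and 134 CPM, against 186, 182 and 185 CPM in vehicle, a log2 fold of -0.52 ± 0.066 (SE, adjusted p = 2.91e-08). DNAJB4, a close relative of DNAJB1, had 27.8, 23.3 and 29.2 CPM, against 46.7, 49.5 and 52.6 CPM in vehicle, a log2 fold of -0.89 ± 0.081 (SE, adjusted p = 4.79e-12). DNAJA1 had a log2 fold of -0.79, and DNAJB6, known for suppressing protein aggregation, had one of -0.39. DNAJA4 was too low to judge, at 0.557, 0.433 and 0.276 CPM, against 0.571, 0.849 and 0.576 CPM in vehicle (adjusted p = 0.137). BAG3, which links HSP70 to selective autophagy, had 67.2, 66.0 and 67.6 CPM, against 95.1, 96.0 and 109 CPM in vehicle, a log2 fold of -0.58 ± 0.047 (SE, adjusted p = 2.81e-13). The 3 libraries at the high dose lay within 2 CPM of each other and well below vehicle.

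Both HSP90 genes of the cytosol fell. HSP90AA1, the more inducible one, had 1591, 1829 and 1891 CPM at the high dose of Aconiti, against 2945, 3075 and 2981 CPM in vehicle, a log2 fold of -0.76 ± 0.10 (SE, adjusted p = 8.26e-08). HSP90AB1, the constitutive one, had 1415, 1544 and 1477 CPM, against 2224, 2208 and 2236 CPM in vehicle, a log2 fold of -0.59 ± 0.057 (SE, adjusted p = 3.99e-11). Neither overlapped with vehicle. Once the length balance was in the model, the log2 folds were -0.95 for HSP90AA1 and -0.65 for HSP90AB1. At the medium dose HSP90AB1 had a log2 fold of -0.21 (adjusted p = 0.0369), a call that did not survive leaving out any 1 of the 6 libraries compared (adjusted p between 0.0616 and 0.132).

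All 7 co-chaperones fell at the high dose, with log2 folds between -0.81 and -0.24 and a median of -0.46. CHORDC1, which binds HSP90 through its CHORD domains, had 77.1, 63.0 and 74.7 CPM, against 123, 127 and 126 CPM in vehicle (log2 fold -0.81 ± 0.069, SE, adjusted p = 7.54e-13). STIP1, the adaptor that hands clients over between HSP70 and HSP90, had a log2 fold of -0.53, and AHSA1, the activator of the HSP90 ATPase, one of -0.46. CACYBP, which binds calcyclin, was at -0.52, the immunophilin FKBP4 at -0.33, the HSP90 co-chaperone PTGES3 at -0.24 and the HSP70-interacting ST13 at -0.24 on the same scale. For PTGES3 the value moved both ways: without Aconiti high 1 its log2 fold was -0.17 (adjusted p = 0.118), and once the length balance was in the model it was -0.38 (adjusted p = 6.39e-12).

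TRiC, the ring that folds actin and tubulin, had smaller folds. Of its 8 subunits, TCP1, CCT2 and CCT6A fell, and the median log2 fold of all 8 was -0.19. CCT2 had 363, 380.3 and 393 CPM at the high dose of Aconiti, against 447, 448 and 464 CPM in vehicle, a log2 fold of -0.26 ± 0.080 (SE, adjusted p = 0.0111). TCP1 had the largest fold of the subunits, at -0.41 ± 0.066 (SE, adjusted p = 4.04e-06). CCT3, CCT4, CCT5 and CCT8 did not pass, with log2 folds between -0.20 and -0.13, although in each the 3 libraries at the high dose lay below the 3 of vehicle. The share of all genes separated in this way is not given here, and 7330 of all 17269 genes had an unadjusted p under 0.05 in this comparison (edgeR). The separation therefore adds no support for a fall of these 4. CCT7 overlapped with vehicle, at -0.02 ± 0.086 (SE).

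Mitochondrial chaperones split in direction. HSPD1, the mitochondrial chaperonin, had 1133, 1064 and 1187 CPM at the high dose of Aconiti, against 1472, 1479 and 1476 CPM in vehicle (log2 fold -0.39 ± 0.061, SE, adjusted p = 2.15e-06). HSPE1, its lid, lies head to head with HSPD1, and their annotated spans overlap on opposite strands; it had 168, 195 and 218 CPM, against 287, 314 and 342 CPM in vehicle (log2 fold -0.70 ± 0.16, SE, adjusted p = 0.00084). Both fell without overlap. Once the length balance was in the model, the log2 folds were -0.46 for HSPD1 and -1.015 for HSPE1. HSPA9, the mitochondrial HSP70, had 609, 606 and 602 CPM in vehicle, 593, 611 and 655 CPM at the low, 685, 677 and 708 CPM at the medium and 822, 759 and 805 CPM at the high dose. It rose at the high dose by a log2 fold of 0.39 ± 0.047 (SE, adjusted p = 7.59e-09), with each of the 3 libraries above vehicle. TRAP1, the mitochondrial HSP90, had 164, 211 and 186 CPM at the high dose, against 157, 157 and 168 CPM in vehicle, and these ranges overlapped. TRAP1 passed at 0.22 (adjusted p = 0.0444), but with the length balance as a covariate its log2 fold was 0.09 (adjusted p = 0.269), and the call was also lost on leaving out any of 4 single libraries (adjusted p between 0.0528 and 0.275).

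The 2 small heat shock proteins, which hold unfolded proteins without ATP, did not pass. HSPB1 had 324, 444 and 411 CPM at the high dose of Aconiti, against 282, 319 and 358 CPM in vehicle (log2 fold 0.30 ± 0.14, SE, adjusted p = 0.0957). HSPB8, a partner of BAG3, had 5.80, 8.84 and 7.24 CPM, against 8.34, 7.79 and 8.59 CPM in vehicle (log2 fold -0.17 ± 0.12, SE, adjusted p = 0.29). In both genes the groups overlapped.

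The 2 heat shock factors differed from each other. HSF1, the main regulator of the heat shock response, had 78.0, 77.7 and 83.0 CPM in vehicle, 87.7, 86.7 and 94.3 CPM at the low, 96.7, 97.5 and 107 CPM at the medium and 108, 132 and 119 CPM at the high dose of Aconiti. It rose by a log2 fold of 0.59 ± 0.078 at the high dose and 0.34 ± 0.078 at the medium dose (SE, adjusted p = 7.04e-08 and 0.00911). Once the length balance was in the model, the fold of HSF1 at the high dose was 0.46. The medium call was lost without Vehicle 1, Vehicle 2 or Aconiti medium 3 (adjusted p between 0.0611 and 0.0979). All libraries of every dose lay above vehicle, also at the low dose, which was not called. HSF1 messenger RNA is not a measure of HSF1 activity, which is set on the protein. HSF2, a second factor of the family, was at -0.06 ± 0.073 (SE) and overlapped with vehicle. SERPINH1, the collagen chaperone, had 115, 149 and 129.7 CPM at the high dose, against 97.1, 97.1 and 105 CPM in vehicle (log2 fold 0.40 ± 0.084, SE, adjusted p = 0.000223). With the length balance as a covariate its log2 fold was 0.26 (adjusted p = 7.81e-05).

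**Figure D3:**
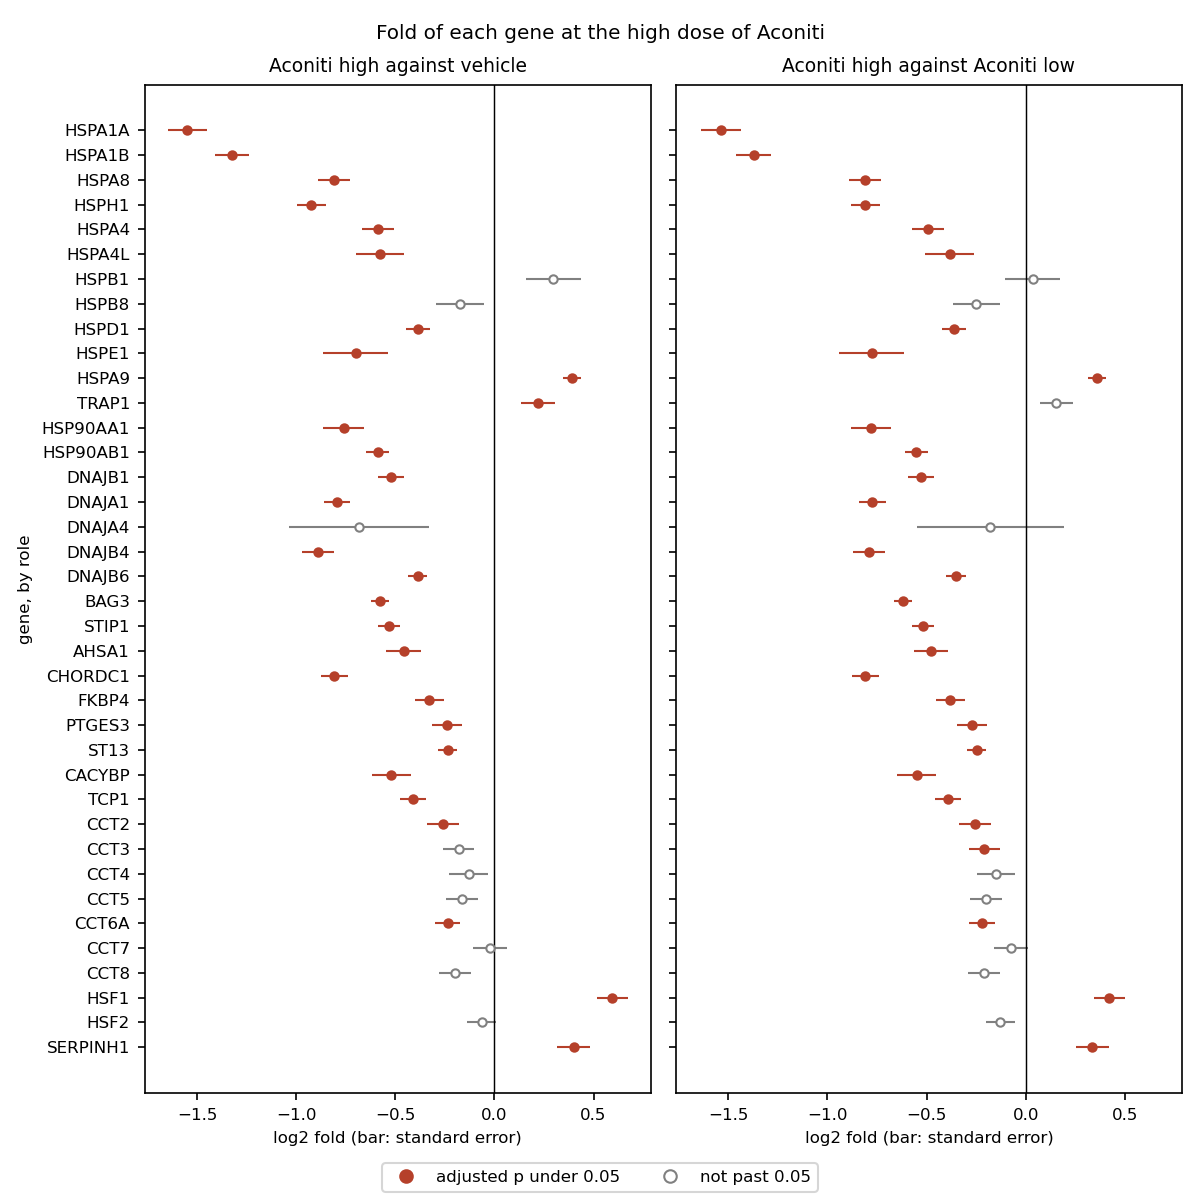
Points give the log2 fold of each of the 38 genes at the high dose of Aconiti against vehicle (left) and against the low dose of the same extract (right), and bars give 1 standard error; filled points pass an adjusted p of 0.05. In both panels HSPA1A and HSPA1B lie farthest to the left, at or below -1.32, and HSF1, HSPA9 and SERPINH1 lie to the right of 0 and pass.

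Comparisons that leave out vehicle gave counts of similar size. Against the low dose of Aconiti, the high dose had 26 of 38 genes lower and 3 higher, where 11.3% of all genes were lower and 11.4% higher. The 25 genes lower against vehicle were among these 26, the other one being CCT3, and the 3 higher were HSF1, HSPA9 and SERPINH1. Leaving out 1 library ended the call of CCT2, CCT3, CCT6A, HSPA4L and PTGES3 in at least 1 case each, and CCT3, which lost it in 4 cases, was at -0.11 (adjusted p = 0.34) without Aconiti low 3. HSPA1A had a log2 fold of -1.54 ± 0.100 (SE, adjusted p = 3.14e-16) and HSF1 one of 0.42 ± 0.078 (SE, adjusted p = 5.26e-05). These 2 comparisons share the libraries at the high dose. Against the medium dose, 22 genes were lower and 2 higher, where 6.21% of all genes were lower and 6.24% higher, and the calls of CACYBP, CCT6A, FKBP4, HSF1, HSPA4 and TCP1 did not all survive leaving out 1 library. Against the high dose of Bupleuri, which shares the set label, the high dose of Aconiti had 24 genes lower and 3 higher, where 11.8% of all genes were lower and 11.2% higher, and CCT6A, HSPA4L and PTGES3 lost their call without at least 1 library. In that comparison HSPA1A had a log2 fold of -1.51 ± 0.100 (SE, adjusted p = 4.28e-16), while the doses of the extracts differed at 360 and 500 µg/mL.

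Yijung, a formula of several herbs, changed few of the genes. At the high dose 3 were lower and 1 higher than in vehicle, where 3.33% of all genes were lower and 3.76% higher, and the median log2 fold of the 38 was 0.01. At the medium dose 4 were lower and 1 higher, where 3.83% of all genes were lower and 4.01% higher. The low dose had 0 calls, where 0.0116% of all genes passed. A model that held the length balance called 8 genes at the medium and 8 at the high dose, while fits on the 6 libraries of each comparison alone called 3 and 1. The shares of all genes in these fits are not given here. HSPA1A, HSPA1B and DNAJB4 were lower at both the medium and the high dose. The DNAJB4 call at the medium dose was lost without Yijung medium 3 (adjusted p = 0.0532 from edgeR).

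HSPA1A had 338, 360.0 and 382 CPM in vehicle, 356, 297 and 312 CPM at the low, 293, 235 and 239 CPM at the medium and 293, 247 and 222 CPM at the high dose of Yijung. The medium and high doses lay below vehicle and overlapped with each other. Its log2 fold over vehicle was -0.49 ± 0.098 at the medium and -0.50 ± 0.098 at the high dose (SE, adjusted p = 0.000388 and 0.000331). Summed with HSPA1B, the fold at the high dose was -0.43 ± 0.091 (SE, adjusted p = 0.00106). HSPA1B alone, at 197, 179 and 157 CPM at the high dose, against 210.4, 223 and 236 CPM in vehicle, lost its call without Vehicle 3 (adjusted p = 0.0735) or without Yijung high 3 (adjusted p = 0.103). DNAJB4 had 37.1, 42.4 and 43.6 CPM at the high dose, against 46.7, 49.5 and 52.6 CPM in vehicle, without overlap (log2 fold -0.27 ± 0.079, SE, adjusted p = 0.0228). That call was lost without Vehicle 2, Vehicle 3 or Yijung high 1 (adjusted p between 0.0684 and 0.179).

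HSPB8 had 7.43, 5.91 and 5.53 CPM at the medium dose of Yijung, against 8.34, 7.79 and 8.59 CPM in vehicle, without overlap. Its log2 fold of -0.38 ± 0.12 (SE, adjusted p = 0.047) did not hold when any vehicle library, Yijung medium 2 or Yijung medium 3 was left out (adjusted p between 0.0646 and 0.199). HSPA9 had 716, 724 and 682 CPM at the medium dose, against 609, 606 and 602 CPM in vehicle, and rose by 0.22 ± 0.047 on the log2 scale (SE, adjusted p = 0.000865). BAG3 had 119, 116 and 106 CPM at the high dose, against 95.1, 96.0 and 109 CPM in vehicle, and 1 library of each group overlapped. It rose by 0.19 ± 0.047 on the log2 scale (SE, adjusted p = 0.00717), a call lost without Vehicle 1, Vehicle 2 or Yijung high 1 (adjusted p between 0.0627 and 0.092).

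**Figure D4:**
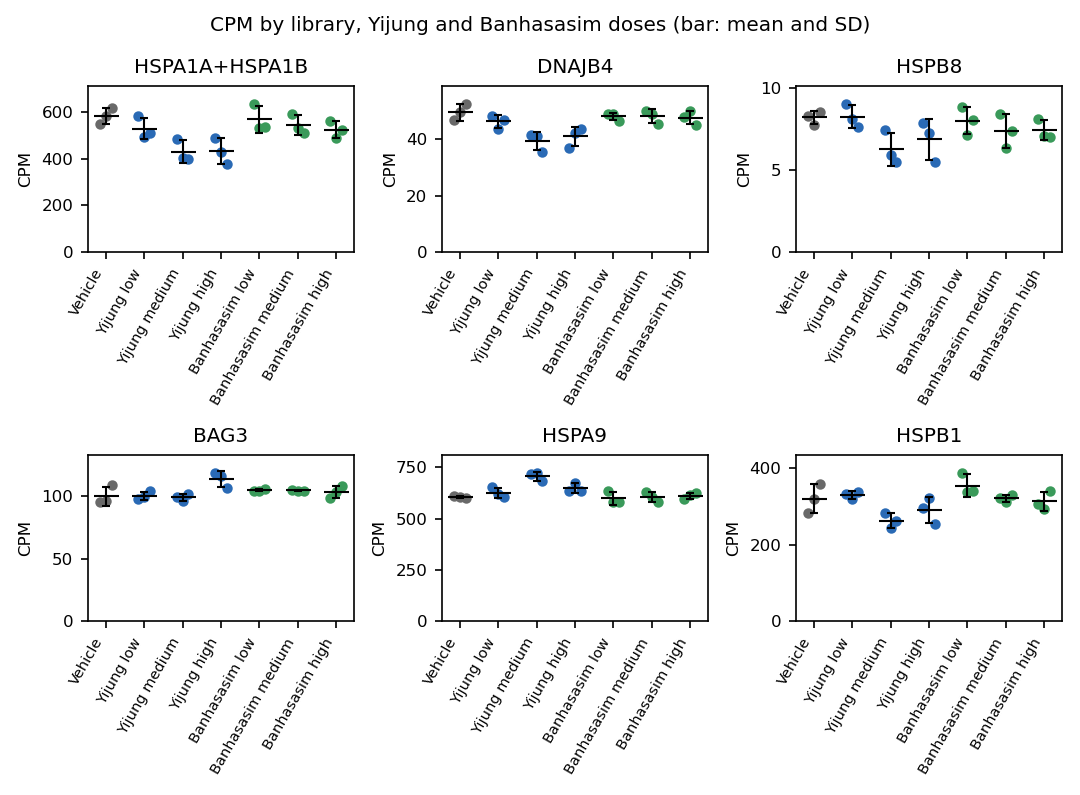
CPM of 6 genes (panels) in each library of vehicle and of Yijung and Banhasasim at low, medium and high dose; points are libraries, and bars give the mean and SD of 3 libraries, on axes that start at 0. The summed HSPA1A and HSPA1B reach 379 to 490 CPM at the high dose of Yijung, against 548.7 to 617 CPM in vehicle. The 3 doses of Banhasasim overlap with vehicle in this sum through replicate 1 only, while their replicates 2 and 3, at 490 to 536 CPM, lie below vehicle. Replicates 2 and 3 of the low dose of Yijung, at 494 and 510 CPM, do so too.

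Within Yijung, the high against the low dose had 1 gene lower and 1 higher, where 2.29% of all genes were lower and 2.64% higher. The lower one was HSPA1A, at -0.34 ± 0.098 (SE, adjusted p = 0.0278), which became -0.29 with the pair summed (adjusted p = 0.0524). The HSPA1A call was also lost without Yijung low 1, Yijung low 3, Yijung high 2 or Yijung high 3 (adjusted p between 0.0526 and 0.19). The higher one was BAG3, at 0.18 ± 0.047 (SE, adjusted p = 0.0123), a call lost without replicate 1 or 2 of either dose (adjusted p between 0.065 and 0.107). Against the medium dose, BAG3 was again higher at 0.20 ± 0.047 (SE, adjusted p = 0.0168) and 0 genes were lower, where 0.515% of all genes were higher and 0.567% lower. There too the BAG3 call was lost without replicate 1 or 2 of either dose (adjusted p between 0.0562 and 0.156). Against Banhasasim at the same dose of 500 µg/mL and in the same set, the high dose of Yijung had 1 gene lower and 0 higher, where 2.19% of all genes were lower and 2.60% higher. That gene was HSPA1A, at -0.33 ± 0.098 (SE, adjusted p = 0.0393), with the summed pair at -0.28 (adjusted p = 0.0649). Without Yijung high 2, Yijung high 3, Banhasasim high 1 or Banhasasim high 3 the HSPA1A call was lost (adjusted p between 0.104 and 0.181).

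Set directly against each other, the high dose of Aconiti had 28 genes lower and 4 higher than the high dose of Yijung, where 14.0% of all genes were lower and 14.9% higher. The summed HSPA1A and HSPA1B had a log2 fold of -1.03 ± 0.092 (SE, adjusted p = 6.18e-12). BAG3, at 67.2, 66.0 and 67.6 CPM with Aconiti and 119, 116 and 106 CPM with Yijung, differed by -0.76 ± 0.048 (SE, adjusted p = 9.29e-17). The 4 higher genes were SERPINH1 at 0.61, HSPB1 at 0.44, HSF1 at 0.42 and HSPA9 at 0.30 on the log2 scale. The call of HSPB1 was lost without Aconiti high 2 (adjusted p = 0.104) or Yijung high 3 (adjusted p = 0.102), and among the lower genes CCT3, CCT5, CCT8 and PTGES3 lost theirs without at least 1 library. The set labels and the doses of 360 and 500 µg/mL differed between these groups.

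Citri, Cimicifugae, Bupleuri and Banhasasim had 0 of the 38 genes called at any dose in edgeR's test. In Citri this held at the low, medium and high dose, where 0.00579%, 0.0174% and 0.0463% of all genes passed, and in Cimicifugae at the same doses, where 0.0116%, 0.0347% and 1.97% passed. In Bupleuri 0%, 0% and 0.712% of all genes passed at the low, medium and high dose, and in Banhasasim 0%, 0% and 0.185%. At an unadjusted p under 0.05 the high doses of Citri, Cimicifugae, Bupleuri and Banhasasim had 0, 4, 5 and 1 of the 38 genes. Of all 17269 genes, 631, 2067, 1723 and 788 were under 0.05 in the same comparisons. DESeq2 called 0 in all of these groups but Citri medium, where it called 1. Fitted on the 6 libraries of a comparison alone, Cimicifugae high had 11 and Bupleuri high 5 of the genes past the threshold, and a model with the length balance called 9 and 4. For Bupleuri high the model with the length balance called 682 of all genes, against 123 without it. Counts over all genes in the other fits just named are not given here, so their counts of the 38 cannot be set against a share. High against low dose also gave 0 calls in Citri, Cimicifugae, Bupleuri and Banhasasim, where 0.0232%, 1.34%, 0.353% and 0.127% of all genes passed. The high dose of Cimicifugae against that of Citri gave 0, where 0.689% of all genes passed.

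The summed HSPA1A and HSPA1B passed in none of these extracts at any dose. They had 603, 558 and 556 CPM at the high dose of Bupleuri, 635, 574 and 583 CPM at that of Cimicifugae and 596, 575 and 577 CPM at that of Citri, and all 3 ranges overlapped with vehicle. At the low dose of Bupleuri the sum was 654, 678 and 621 CPM, above every vehicle library (log2 fold 0.16 ± 0.091, SE, adjusted p = 0.618), and at the medium dose it was 740.1, 619.7 and 598 CPM, which overlapped with vehicle. The log2 fold over vehicle in Citri high was -0.00 ± 0.091 (SE), and in Banhasasim high -0.15 ± 0.091 (SE, adjusted p = 1.0). HSF1 lay above all 3 vehicle libraries at all 3 doses of Cimicifugae and of Bupleuri, at the low and medium doses of Citri and at the medium dose of Yijung, with log2 folds between 0.14 and 0.28, none past the threshold. All these groups were set against the same 3 vehicle libraries, so they are not separate observations. None shares the set label of vehicle, and the part of the set was not tested. The share of all genes that lay above vehicle in this way is not given here. The medium dose of Citri rested on a library that stood apart: in Citri medium 1, HSPB1 was at 658, HSPE1 at 617 and HSP90AA1 at 4590 CPM, while Citri medium 2 and 3 had 343 and 373 CPM of HSPB1, 325 and 309 CPM of HSPE1 and 3000.3 and 2937 CPM of HSP90AA1.

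Bojungikgi had 1 library per dose and allowed no test. On the log2(CPM + 1) scale, 0 of the 38 genes lay at least 0.5 from the mean of vehicle and outside its range at the low, medium or high dose, where 1.07%, 1.01% and 0.886% of all genes did. The medians of the 38 were -0.06, -0.10 and -0.14 at the low, medium and high dose. The lowest value at the high dose was -0.32, for HSPA1A, which had 288 CPM there, against 338, 360.0 and 382 CPM in vehicle.

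Other chaperone lists were counted beside the 38 genes. Of 33 further cytosolic chaperones and cofactors tested, 4 rose and 8 fell at the high dose of Aconiti, with a median log2 fold of -0.02, where 17.0% of all genes were higher and 15.7% lower. HSPA2, an HSP70 relative known from the testis, averaged 36.2 ± 0.877 CPM there and 69.1 ± 1.54 CPM in vehicle (SD, n = 3 each), a log2 fold of -0.93 (adjusted p = 2.17e-16 from edgeR). HSPA14 fell by 0.43 and SUGT1, an adaptor of HSP90, by 0.37 on the log2 scale. The ubiquitin ligase STUB1, which acts on HSP70 clients, rose by 0.56 and FKBP8 by 0.42 on the log2 scale. HSPA2 also fell against vehicle at Cimicifugae high (-0.40, adjusted p = 2.01e-05), at Aconiti medium (-0.23) and at Yijung high (-0.36), where DNAJB2 fell as well (-0.36). The high dose of Cimicifugae was also lower in HSPA2 than its low dose (-0.27) and than Citri high (-0.36). Of 6 prefoldin subunits, which pass actin and tubulin to TRiC, PFDN2 alone passed with Aconiti high, at 0.55.

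Further mitochondrial quality control genes rose at the high dose of Aconiti for 5 of 14, and 0 fell, with a median log2 fold of 0.21, beside the same 17.0% and 15.7% of all genes. LONP1, the matrix protease, averaged 173 ± 22.4 CPM there and 94.3 ± 1.66 CPM in vehicle (SD, n = 3 each), a log2 fold of 0.88 (adjusted p = 9.09e-12 from edgeR). TIMM44, which tethers HSPA9 to the import channel, rose by 0.58, and GRPEL2, a nucleotide exchange factor of HSPA9, by 0.44. At the medium dose of Aconiti 3 of the 14 rose, and at the medium dose of Yijung 3 did, namely TIMM44 (0.36), GRPEL2 (0.36) and DNAJA3 (0.22), where 1.64% and 4.01% of all genes were higher at these doses. Of 14 chaperones of the endoplasmic reticulum, 3 rose and 1 fell with Aconiti high, shares near or below those of all genes. HSPA5, the HSP70 of that compartment, averaged 1036 ± 12.1 CPM there and 635 ± 24.4 CPM in vehicle (SD, n = 3 each), a log2 fold of 0.71 (adjusted p = 1.99e-16 from edgeR), DNAJB9 rose by 0.96 and HYOU1 by 0.68, while CALR fell by 0.32. At the medium dose of Yijung 3 of these 14 fell: CALR, PDIA4 and HSP90B1, by 0.33, 0.31 and 0.16 on the log2 scale, where 3.83% of all genes were lower.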

How the data were processed

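Messenger RNA of 60 libraries was counted by the authors. Per the labels' protocols, directional libraries (MGIEasy) were sequenced as 100 bp paired-end reads. The tools named per the submitters' processing notes are RSEM 1.3.3, STAR 2.7.3a, FastQC 0.11.9 and Trim Galore 0.6.5, and the build is GRCh38 (hg38). Neither annotation release nor strand setting is given in the sources used here, so overlapping and antisense genes are uncertain. The deposited values are RSEM expected counts, not normalized, of which 9.374% were not whole. The file held 269 sample columns: 60 were used and 209 belonged to no sample described here. Symbols came from GENCODE 29, which held 57055 of 60675 identifiers.

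Expected counts were rounded. edgeR 4.0.16 (R 4.3.3) fitted 57 libraries of 19 groups in 1 quasi-likelihood model (TMM scaling, low-count filter by group, 38 residual degrees of freedom, biological coefficient of variation 10.1%), with Benjamini-Hochberg adjustment within each of 30 comparisons and a threshold of 0.05. The standard error of a log2 fold is its size over the square root of F. Bojungikgi stayed outside the model and used a pseudocount of 1. Depth limits low genes such as DNAJA4. The closest pair of replicates differed by more than sampling noise, at a chi-square of 2.032 per degree of freedom. The script was tested on simulated data. Alternatives were RLE size factors, no low-count filter, DESeq2 1.42.0, the 6 libraries of a comparison alone, the replicate number as a block, mitochondrially encoded genes removed, a covariate for the length balance, the fit less Citri medium 1, each library left out in turn and, for HSPA1A and HSPA1B, their sum. The genes and lists were chosen with earlier results of these data known. Any member could be named, with values per library for a fixed set and for the 4 largest changes in each direction, and up to 3 genes in each direction from other lists at 5 CPM or more. The library values of CHORDC1 and DNAJA4 fall outside this rule and were added after they were seen.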

Additional observations from a re-analysis of the deposited data

Results flagged for a closer look

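BAG3 differed in direction between 2 extracts at their high doses: against vehicle its log2 fold was -0.58 ± 0.047 with Aconiti (SE, n = 3 libraries, lower in 3 of 3) and 0.19 ± 0.047 with Yijung (SE, n = 3, above every vehicle library in 2 of 3). The Yijung call was lost without Vehicle 1, Vehicle 2 or Yijung high 1 (adjusted p between 0.0627 and 0.092). The difference itself, Aconiti minus Yijung, was -0.76 on the log2 scale (adjusted p = 9.29e-17, edgeR's quasi-likelihood test over all genes). The libraries had 67.2, 66.0 and 67.6 CPM with Aconiti and 119, 116 and 106 CPM with Yijung, without overlap. The 2 groups carry different set labels and doses, whose part in the difference was not tested.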

How the results depend on the processing

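Of 161 called folds of single genes, 0 reversed under any alternative. Calls held for 159 with RLE size factors, 159 with DESeq2, 160 with the length balance, 158 with mitochondrially encoded genes removed, 143 with no low-count filter, 117 with the 6 libraries compared alone and 160 without Citri medium 1. Leaving out a library kept 856 of 966, and summing HSPA1A and HSPA1B kept 16 of 18. In 0 of 30 comparisons were all 3 correlations of deviations between libraries of the same replicate number over 0.1. That rule cannot exclude a pairing of the libraries. With the replicate block 159 calls held, and the high dose of Aconiti against vehicle had 28 genes called in place of 29.

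Counts that moved by over 1.5 times were these. With no filter on low counts, Yijung high had 2, Yijung medium 3, Aconiti medium 4 and Citri medium 1 genes called against vehicle, and Yijung high had 1 against its low and 0 against its medium dose. With the length balance, 9 were called for Cimicifugae high, 4 for Bupleuri high, 8 for Yijung high, 8 for Yijung medium and 20 for Aconiti medium against vehicle, 4 for Yijung high against low and 5 against Banhasasim. With only the 6 libraries compared, 11 were called for Cimicifugae high, 5 for Bupleuri high, 1 for Yijung high, 3 for Yijung medium and 15 for Aconiti medium against vehicle, 0 for Yijung high against low, medium and Banhasasim, 13 for Aconiti high against medium, 21 for Aconiti against Yijung high and 1 for Cimicifugae against Citri high. DESeq2 called 1 for Citri medium and 2 for Yijung against Banhasasim, and the fit without Citri medium 1 also called 2 there. Calls over all genes against vehicle moved too. With no filter Yijung high had 820 in place of 1224 and Yijung medium 875 in place of 1355. Aconiti medium then had 188 in place of 399, and Citri medium 120 in place of 3. With the length balance Bupleuri high had 682 in place of 123, and Aconiti medium 1105 in place of 399. For the other fits named here the counts over all genes are not given. The cause was not tested.

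Leaving out 1 library gave 2 to 4 calls for Yijung high, 3 to 6 for Yijung medium, 2 to 5 for Aconiti medium and 0 to 4 for Citri medium against vehicle, and 0 to 1, 0 to 1 and 0 to 2 for Yijung high against low, medium and Banhasasim. The count for Aconiti high against vehicle stayed at 28 or 29.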

Other observations

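HSPB1 was above vehicle on average in Citri, Cimicifugae, Bupleuri and Aconiti at every dose, without a call. Its log2 folds at the low dose were 0.19 ± 0.14, 0.30 ± 0.14, 0.38 ± 0.14 and 0.26 ± 0.14 (SE, n = 3 libraries per group) for Citri, Cimicifugae, Bupleuri and Aconiti. At their low doses Yijung was at 0.04 ± 0.14 and Banhasasim at 0.15 ± 0.14. In Yijung and Banhasasim at the high dose the folds were -0.14 ± 0.14 and -0.03 ± 0.14. No extract shares the set label of vehicle, and the part of the set in these values was not tested. HSPB1 has a short transcript of 909 bases, and the length balance differed between libraries. In replicates 1, 2 and 3 of Cimicifugae low it had 364, 464 and 356 CPM at balances of 1.01, 0.34 and 1.01. Vehicle had 282, 319 and 358 CPM at balances of 1.19, 1.11 and 0.97. The folds of HSPB1 with the length balance in the model are not given here.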
